A study of Mus musculus with 12 samples.

Results

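The 35 genes described here encode enzymes and carriers of glycolysis, gluconeogenesis, fructose and glycogen use, and the entry of pyruvate into mitochondria. They were taken by gene symbol from a written list, and all 35 were found among the 30265 symbols of the table. All 35 also passed the filter on low values, which asked for 3 or more libraries with a normalised count of 10 or more and left 16577 genes. RNA sequencing had been done on 12 libraries, each from 12000 intestinal epithelial cells of C57Bl/6 mice sorted by the green fluorescence of a Sox9-GFP reporter. Sox9 is a transcription factor of intestinal crypt cells. The 4 sorted gates, from the brightest down, are named High, Low, Sublow and Negative here, after their Sox9 labels, and each had 3 libraries with the letters A, B and C. No treatment separated them, and all were gates of Sox9-GFP tissue, so that a population is a fluorescence gate that can hold several cell types. The labels used here do not describe the reporter allele or give the animals' age or sex, the stretch of intestine, or whether the letters stand for separate animals, so p-values measure only the spread between these libraries.

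Each library held 11630042 to 17046944 reads counted to genes. The normalised count of Sox9 itself was 18857, 21059.5 and 20868 in High (A, B, C), 7655, 5945 and 6204 in Low, 1955, 1259 and 3039 in Sublow and 703, 383 and 725 in Negative, so the libraries fell in the order of their gates. All 5 epithelial markers were present in every population, and their summed normalised counts ranged from 59270.4 to 192838. Enteroendocrine markers (5 genes) summed to 324776 to 532383 in High against 221 to 1069.7 in Negative, and tuft cell markers (5 genes) to 75125 to 78690.5 against 83.0 to 180.3. Low had the highest sums of 5 crypt base stem cell markers (60443 to 79714) and of 4 cycling cell markers (30343 to 33121). Negative had the highest sums of 8 absorptive enterocyte markers (566148 to 873919) and of 5 Paneth cell markers (45542 to 118435). The 5 goblet cell markers summed to 142279 to 252493 in Sublow and 69278 to 205354 in Low, against 22252 to 43028 in Negative and 2222 to 3222 in High. The marker sums of T cells, B cells, myeloid cells, fibroblasts and muscle, endothelium, and enteric neurons and glia were at most 1055 in any library. In sorted bulk samples like these, fewer cells of a type and less RNA per cell cannot be told apart.

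Glycolysis splits glucose into pyruvate in the cytosol, and its committed steps are catalysed by hexokinase, phosphofructokinase and pyruvate kinase. Pyruvate is then reduced to lactate by lactate dehydrogenase or carried into the mitochondrion and oxidised by the pyruvate dehydrogenase complex, which pyruvate dehydrogenase kinases switch off. Gluconeogenesis runs the other way and bypasses the committed steps with pyruvate carboxylase, phosphoenolpyruvate carboxykinase, fructose bisphosphatase and glucose-6-phosphatase. Many steps are shared among isozymes, which are products of separate genes that differ in regulation and tissue. Absorptive enterocytes of the villus are known for taking up glucose and fructose and for holding gluconeogenic enzymes.

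Promoter sequences are shown for 5 genes whose levels separated the populations, Hk1 and Pygl with the highest levels in High and Ldha, Khk and Pck1 with the highest levels in Negative. Each is a RefSeq window of 300 bases around an annotated start (build GRCm38.p6), read 5′ to 3′ on the gene's strand, and Hk1 and Ldha are shown by 1 of their 2 windows. Capitals mark, on either strand, ACGTG and GCGTG (the core letters of the hypoxia response element), CAAAGTCCA (a core of HNF4 sites) and TATAAA (the TATA box).
Hk1 (chr10:62340372-62340671, reverse strand): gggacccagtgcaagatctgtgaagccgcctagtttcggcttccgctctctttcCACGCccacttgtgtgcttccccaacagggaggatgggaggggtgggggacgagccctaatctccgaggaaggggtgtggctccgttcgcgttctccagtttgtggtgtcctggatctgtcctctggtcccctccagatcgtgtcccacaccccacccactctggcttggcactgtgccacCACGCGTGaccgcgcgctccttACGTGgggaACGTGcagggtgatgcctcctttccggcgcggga
Pygl (chr12:70227634-70227933, reverse strand): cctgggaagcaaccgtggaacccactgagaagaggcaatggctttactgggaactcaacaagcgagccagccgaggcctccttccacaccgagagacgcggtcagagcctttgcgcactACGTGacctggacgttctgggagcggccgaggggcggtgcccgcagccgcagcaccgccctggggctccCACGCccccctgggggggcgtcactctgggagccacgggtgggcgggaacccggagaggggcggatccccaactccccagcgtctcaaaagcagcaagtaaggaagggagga
Ldha (chr7:46845554-46845853, forward strand): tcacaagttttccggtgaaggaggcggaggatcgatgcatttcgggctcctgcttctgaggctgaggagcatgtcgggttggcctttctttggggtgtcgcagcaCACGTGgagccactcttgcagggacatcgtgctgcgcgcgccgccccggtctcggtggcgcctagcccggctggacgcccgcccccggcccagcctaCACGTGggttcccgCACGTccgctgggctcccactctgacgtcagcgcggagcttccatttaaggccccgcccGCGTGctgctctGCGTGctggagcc
Khk (chr5:30921309-30921608, forward strand): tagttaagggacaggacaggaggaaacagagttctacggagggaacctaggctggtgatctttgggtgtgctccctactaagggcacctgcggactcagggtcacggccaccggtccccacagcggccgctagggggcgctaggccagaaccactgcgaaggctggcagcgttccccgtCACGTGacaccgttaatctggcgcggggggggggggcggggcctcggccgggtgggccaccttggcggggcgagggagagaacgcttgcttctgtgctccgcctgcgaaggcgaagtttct
Pck1 (chr2:173152823-173153122, forward strand): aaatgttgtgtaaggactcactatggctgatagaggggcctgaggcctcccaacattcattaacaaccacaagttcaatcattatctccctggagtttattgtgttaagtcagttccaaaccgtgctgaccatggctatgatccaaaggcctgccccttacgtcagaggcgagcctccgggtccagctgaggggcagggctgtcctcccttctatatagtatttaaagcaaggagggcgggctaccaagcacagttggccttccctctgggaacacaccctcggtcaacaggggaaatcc
The Ldha window held 5 ACGTG matches, counted on both strands, and 2 of its stretches read CACGTG, the E-box letters, which hold ACGTG on each strand. ACGTG matched the Hk1 window 2 times, the Khk window 2 times and the Pygl window 1 time, and none of the 4 letter strings matched the Pck1 window. The other window of Hk1 and that of Ldha, not shown, each held 0 ACGTG matches. Among all 51 windows of the 35 genes, 39.2% held ACGTG, against 19.6% of all 32851 RefSeq windows. GCGTG was in 49.0% against 32.4%, and CACGTG, every copy of which is also counted under ACGTG, in 11.8% against 7.15%. TATAAA was in 5.88% (those of Eno2, G6pc and Pklr) against 13.6%, and CAAAGTCCA in 0 of 51 against 0.475%. The median share of G and C was 59.0% in the 51 windows and 52.7% in all windows. Repeated windows of identical sequence were dropped for the 35 genes but not among all windows. Some windows of the same gene overlap, as for Aldoa and Eno1, so a match can be counted more than once. A match is a description of the letters and not a bound site.

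Across the 4 populations, 31 of the 35 genes differed (limma F test, adjusted p below 0.05), where 69.5% of all genes tested did. The 4 that did not pass were Pfkm (adjusted p = 0.109), Eno2 (0.893), Eno3 (0.444) and Pdk1 (0.104). Together the 35 genes held 0.304% ± 0.0190 (SD, n = 3) of the reads in Low, 0.462% ± 0.0178 in High, 0.504% ± 0.110 in Sublow and 0.728% ± 0.0644 in Negative. The heat map of the 12 libraries shows most glycolytic and gluconeogenic genes highest in Negative, and Hk1, Hk2 and Pygl running the other way.

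**Figure D1:**
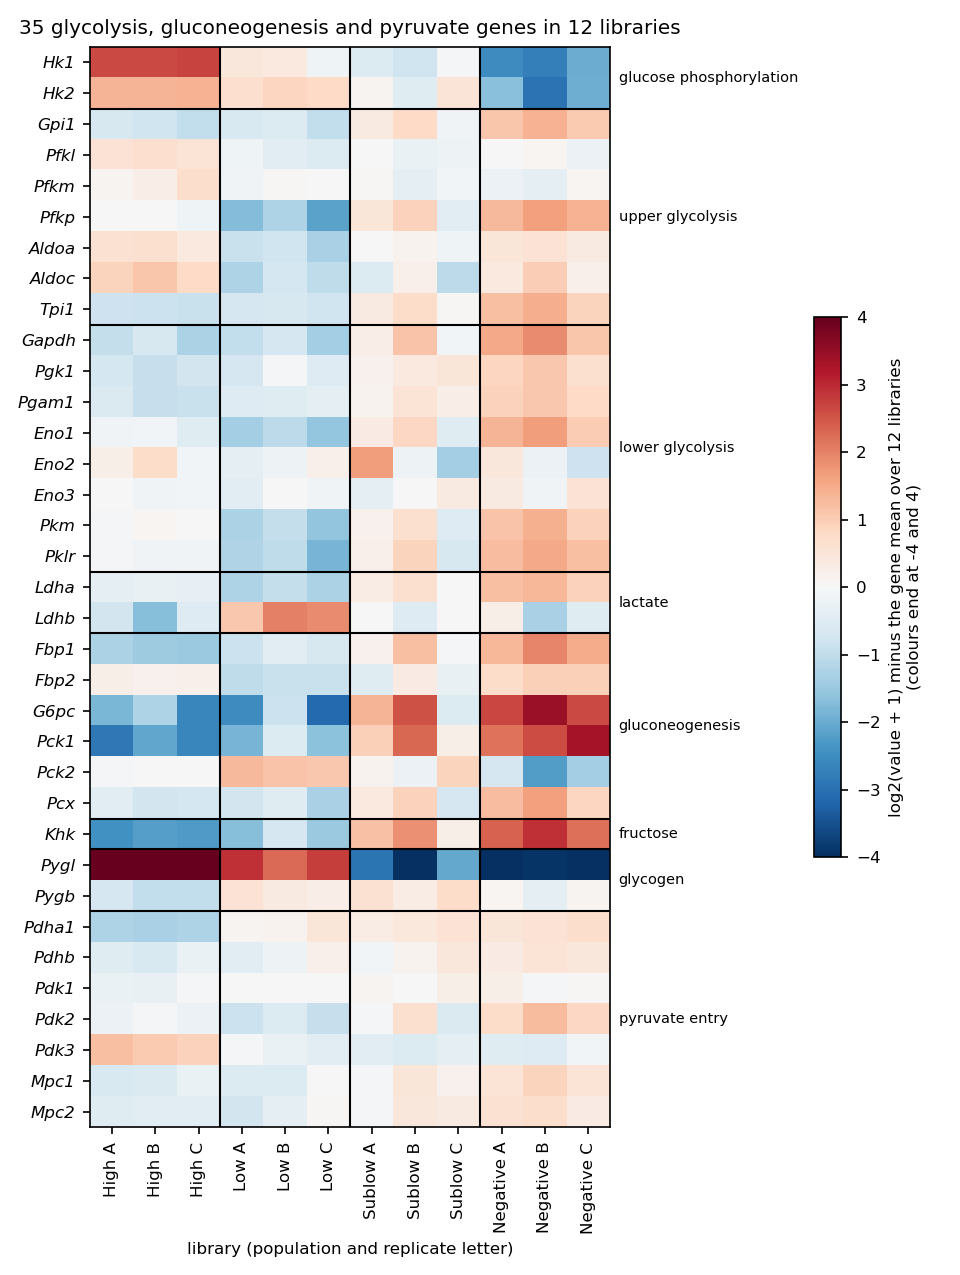
Level of each of the 35 genes (rows, grouped by role) in each of the 12 libraries (columns), as log2(value + 1) minus the gene's mean over the 12 libraries, with the colour scale ending at -4 and 4. Negative libraries are red for most glycolytic and gluconeogenic genes, and Hk1, Hk2 and Pygl are red in High and blue in Negative.

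Pairwise tests used limma on log2(value + 1), with log2 differences given ± SE and p-values adjusted over all genes tested, and folds taken from the same scale. The median difference was largest for Negative against Low, where 23 of 35 genes were higher and 6 lower, against 26.8% and 30.3% of all genes. It was 1.39 on the log2 scale for the 35 genes and -0.05 for all genes. Sublow against Low gave 19 higher and 2 lower (13.3% and 10.7% of all genes), with medians of 0.77 and -0.06. High against Low gave 12 higher and 5 lower (23.6% and 19.3% of all genes), with medians of 0.23 and 0.10, so this count stood nearer to that of all genes. High against Negative gave 7 higher and 22 lower (28.8% and 25.8% of all genes), and High against Sublow 7 higher and 16 lower (26.7% and 25.3%). Sublow against Negative gave 5 higher and 18 lower (15.1% and 12.7% of all genes). That last count fell from 23 to 7 without Negative B, to 10 without Sublow C and to 13 without Sublow A. Each population enters 3 of these comparisons, which are therefore not independent.

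The deposited scaling gives Negative libraries larger totals than Low libraries, with means of 18811803 and 12720797 normalised counts per library. With every library scaled to the same total, the median log2 difference of all genes moved by -0.56 for Negative and -0.27 for Sublow (each against Low), by 0.49 for High and 0.29 for Sublow (each against Negative), and by 0.20 for High against Sublow. The split of calls among the 35 genes was then 20 higher and 9 lower for Negative, 16 and 5 for Sublow and 12 and 9 for High (each against Low), and 9 and 13 for High against Sublow. With quantile normalisation, which moved the median of all genes by 0.22 for Negative against Low, -0.28 for High against Negative, -0.13 for Sublow against Negative and -0.11 for High against Sublow, the splits were 12 and 9 for High and 17 and 5 for Sublow (each against Low), and 5 and 6 for Sublow against Negative. Under the same total, the shares of all genes called higher and lower were 14.7% and 48.6% for Negative, 7.88% and 19.7% for Sublow and 21.3% and 20.5% for High (each against Low), and 32.8% and 19.1% for High against Sublow. After quantile normalisation they were 23.0% and 23.7% for High and 12.3% and 12.2% for Sublow (each against Low), and 12.3% and 6.76% for Sublow against Negative. A single factor per library cancels in the ratio of 2 genes within a library, given further on, except for the added pseudocount, which weighs on low genes such as Pygl in Negative.

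**Figure D2:**
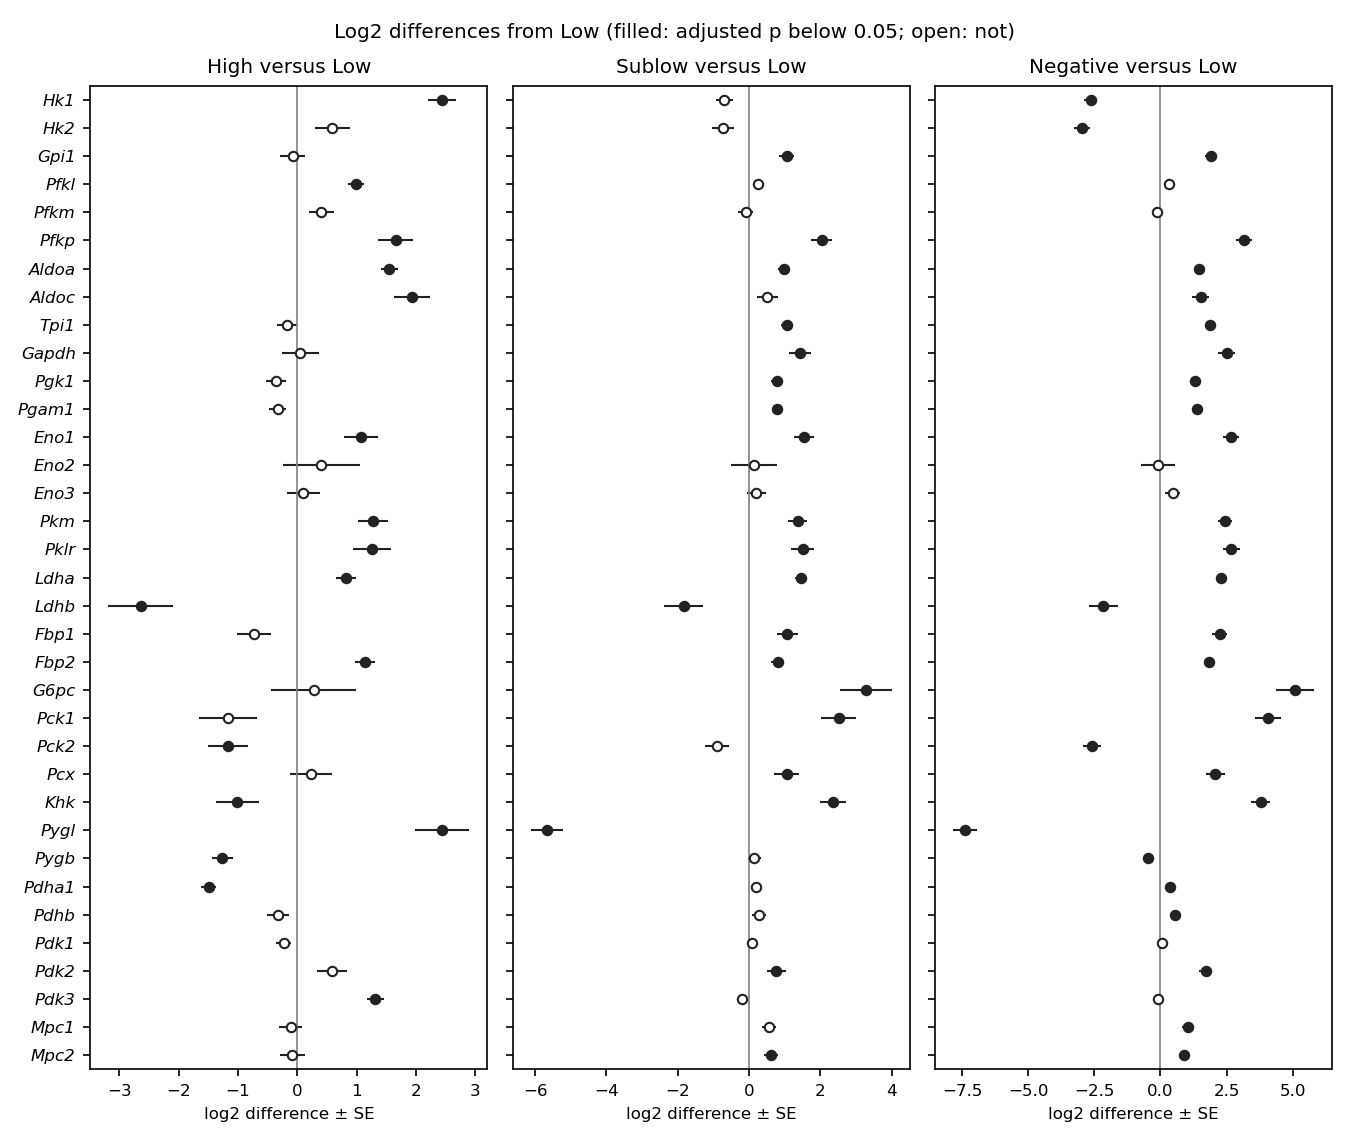
Log2 difference ± SE from Low for each of the 35 genes in High, Sublow and Negative (3 panels with different horizontal ranges), where filled points have an adjusted p below 0.05. In the panels of Sublow and Negative most filled points lie to the right of 0, with Pygl far to the left, while the panel of High has filled points on both sides.

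Hexokinases phosphorylate glucose and so trap it in the cell, and both family members studied here had their lowest counts in Negative. Hk1, the broadly expressed form that binds mitochondria, had normalised counts (in the order A, B, C here and below) of 1753, 1753 and 1832 in High, 382, 367 and 249.6 in Low, 191, 161 and 269.8 in Sublow and 48.6, 41.5 and 69.6 in Negative. The High libraries lay above all others and the Negative libraries below all others. Hk1 was 5.42-fold higher in High than in Low (log2 difference 2.44 ± 0.24, adjusted p = 1.3e-05) and fell in Negative against Low (-2.63 ± 0.24, adjusted p = 7.18e-06). Hk2, the form induced by insulin and hypoxia, had counts of 4553, 4539.9 and 4631 in High, 2845, 3182 and 3087 in Low, 1891, 1269 and 2558 in Sublow and 557, 228 and 456 in Negative. Its populations did not overlap in this order. Negative was lower than Low (log2 difference -2.97 ± 0.30, adjusted p = 1.04e-05) and than Sublow (Sublow against Negative 2.24 ± 0.30, adjusted p = 0.00128). High against Low (0.59 ± 0.30) and Sublow against Low (-0.73 ± 0.30) did not pass, with adjusted p-values of 0.127 and 0.0958. Sublow was called lower than Low for Hk2 under 6 of 21 alternatives, among them the same total in every library (0.0480), quantile normalisation (0.0244) and library weights (0.00450), and for Hk1 (-0.69 ± 0.24, adjusted p = 0.0551) under 10 of 21. The enteroendocrine and tuft cell marker sums given above were highest in the same population as Hk1, and their part in the difference was not tested.

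Of the 7 genes of upper glycolysis, 5 were higher in Negative than in Low and none was lower, and 4 were higher in High than in Low, where 26.8% and 23.6% of all genes were higher. Pfkp, the platelet-type phosphofructokinase, had counts of 3001, 3026 and 2670.2 in High, 895, 1268 and 676 in Low, 4227, 5668 and 2228 in Sublow and 7462, 9424 and 7839 in Negative. All Low libraries were below those of the other populations, and Negative exceeded Low 8.95-fold (log2 difference 3.16 ± 0.30, adjusted p = 7.88e-06), with High (1.66 ± 0.30) and Sublow (2.04 ± 0.30) also above it (adjusted p = 0.000776 and 0.000823). Pfkl, the liver-type form, had counts of 1000.5, 1073 and 975 in High, 589, 498 and 457 in Low, 683, 563 and 576 in Sublow and 657, 710.5 and 567 in Negative. It was higher in High than in each other population, with 0.99 ± 0.14, adjusted p = 0.000158 against Low, and the other 3 populations overlapped. Pfkm, the muscle-type form, ranged from 105 to 224.7 over the 12 libraries, with the High libraries above all others (0.54 ± 0.21, adjusted p = 0.0446 against Negative). That call was lost under 10 of 22 alternatives, among them without High B, High C, Negative A, Negative B or any 1 Low library (adjusted p = 0.0562 to 0.191) and after quantile normalisation (0.637). Aldoa, which cleaves fructose bisphosphate, had counts of 5421, 5636 and 4747 in High, 1912, 2056 and 1459 in Low, 3511, 3949 and 3149 in Sublow and 5041, 5338 and 4565 in Negative. High and Negative overlapped and their difference did not pass (log2 difference 0.08 ± 0.15, adjusted p = 0.679), although High was the higher with the same total in every library (adjusted p = 0.00297) or after quantile normalisation (0.00416). Low was the lowest population, with 1.55 ± 0.15, adjusted p = 1.09e-05 for High and 1.47 ± 0.15, adjusted p = 1.12e-05 for Negative against Low.

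Aldoc, the brain-type aldolase, was less abundant, with counts of 264, 305 and 246 in High, 58.8, 86.5 and 68.9 in Low, 96.0, 161 and 67.7 in Sublow and 184, 281 and 163 in Negative. High (1.92 ± 0.30, adjusted p = 0.00033) and Negative (1.52 ± 0.30, adjusted p = 0.00103) were above Low, while Sublow overlapped Low. Gpi1, which converts glucose 6-phosphate to fructose 6-phosphate, had counts of 3187, 2893 and 2536 in High, 3238, 3404 and 2508 in Low, 6335, 8639 and 4529 in Sublow and 10859.9, 13038 and 10388 in Negative. High and Low overlapped, and Negative lay above both without overlap (1.91 ± 0.21, adjusted p = 1.84e-05 against Low). Tpi1, which interconverts the triose phosphates, had counts of 1091, 1084 and 1043 in High, 1239.6, 1263 and 1134 in Low, 2489, 3267 and 2037 in Sublow and 4471, 5315 and 3604 in Negative. Its Negative libraries lay above all others (1.86 ± 0.18, adjusted p = 8.04e-06 against Low), and Low exceeded High by 1.13-fold, a difference that did not pass (adjusted p = 0.451). Tpi1 was also the gene whose place above all 3 other populations in Negative held under every alternative with all 4 populations.

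**Figure D3:**
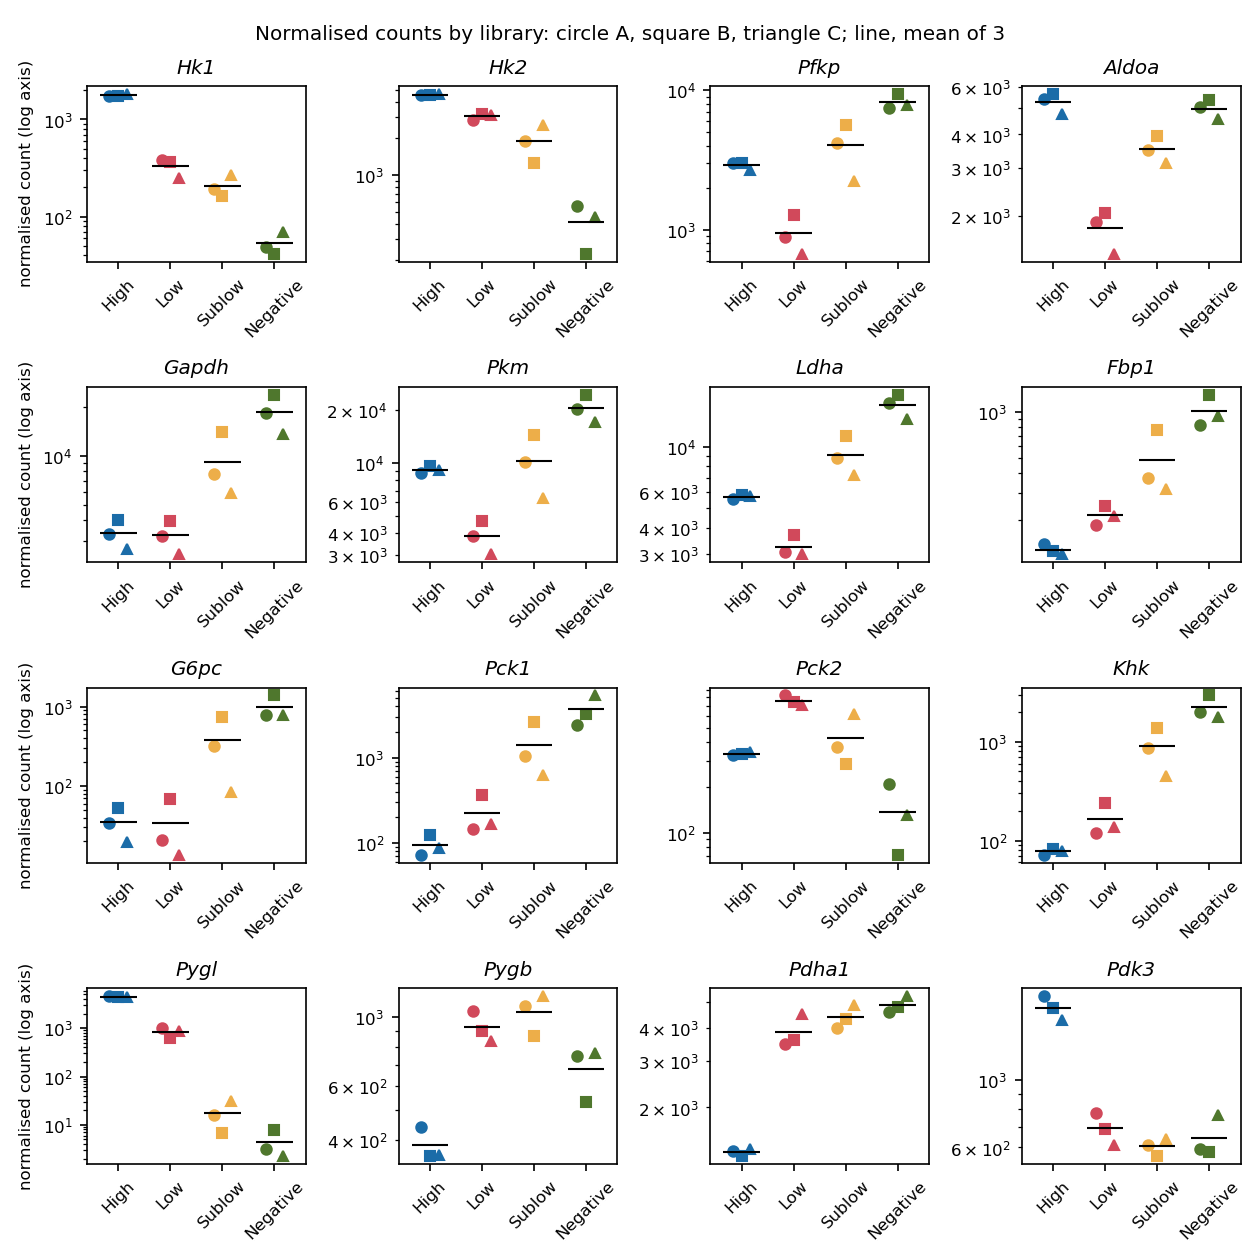
Normalised counts on log axes of 16 of the 35 genes in each library (circle A, square B, triangle C), with a line at the mean of the 3 libraries of a population; vertical ranges differ between panels. Hk1, Hk2 and Pygl fall from High to Negative, whereas Ldha, G6pc and Khk have all their highest points in Negative.

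Of the 8 genes of lower glycolysis, 6 were higher in Negative than in Low, the same number in Sublow than in Low, and 3 in High than in Low, where 26.8%, 13.3% and 23.6% of all genes were higher. Gapdh, the glyceraldehyde phosphate dehydrogenase often used as a reference gene, had counts of 3281, 4042 and 2652 in High, 3229.8, 3989.9 and 2476 in Low, 7672, 14057 and 5880.5 in Sublow and 18232, 23715 and 13531 in Negative. High and Low overlapped (log2 difference 0.05 ± 0.31, adjusted p = 0.919), and Negative exceeded Low 5.68-fold (log2 difference 2.51 ± 0.31, adjusted p = 3.58e-05). Pgk1, the first step that yields ATP, had counts of 723, 619 and 696 in High, 736, 1096 and 809 in Low, 1313, 1532 and 1653 in Sublow and 2145, 2473 and 1827 in Negative. Pgam1, the phosphoglycerate mutase, had counts of 894, 709.5 and 723 in High, 925, 943 and 1042 in Low, 1468, 1959.9 and 1596 in Sublow and 2539, 2793 and 2313 in Negative. Both genes had their highest libraries in Negative, with 1.30 ± 0.17, adjusted p = 4.97e-05 for Pgk1 and 1.39 ± 0.14, adjusted p = 1.18e-05 for Pgam1 against Low. In neither did High against Low pass (adjusted p = 0.109 and 0.0821), although with the same total in every library both were lower in High (adjusted p = 0.0430 for Pgk1 and 0.0263 for Pgam1).

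Eno1, the ubiquitous enolase, had counts of 5366, 5529 and 4298 in High, 2333, 2883 and 2022 in Low, 7454, 10631 and 4266 in Sublow and 15165, 19170.4 and 12004 in Negative. Low was below all other populations without overlap, and Negative stood 6.35-fold above it (log2 difference 2.67 ± 0.29, adjusted p = 1.49e-05). Eno2, the neuronal enolase, ranged only from 4.39 to 42.9, and Eno3, the muscle enolase, from 35.9 to 74.2. Pkm, the pyruvate kinase gene of most tissues, had counts of 8857, 9589 and 9187 in High, 3838, 4725 and 3035 in Low, 10226, 14418 and 6373 in Sublow and 20368, 24542 and 17275 in Negative. Pklr, the pyruvate kinase gene of liver and red blood cells, had counts of 2353, 2223 and 2227 in High, 1057, 1190.4 and 674 in Low, 2783, 4507 and 1550.1 in Sublow and 5777, 6974 and 5542 in Negative. Both pyruvate kinase genes were lowest in Low and highest in Negative, by 2.43 ± 0.26, adjusted p = 1.44e-05 for Pkm and 2.68 ± 0.31, adjusted p = 2.46e-05 for Pklr. High was likewise above Low for both (1.27 ± 0.26 and 1.26 ± 0.31, adjusted p = 0.00179 and 0.00623), and High overlapped Sublow. The M1 and M2 splice forms of Pkm are not separated by counts per gene. For Pkm, the lower level of High against Negative (-1.16 ± 0.26, adjusted p = 0.00215) was lost after quantile normalisation (adjusted p = 0.156).

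Of Ldha and Ldhb, almost all counts were those of Ldha, the form that favours lactate. Ldha had counts of 5563, 5833 and 5719 in High, 3055, 3711 and 2988 in Low, 8776, 11204 and 7297 in Sublow and 16363, 17883 and 13639 in Negative. The populations did not overlap, in the order Low, High, Sublow, Negative, with 0.82 ± 0.17, adjusted p = 0.00182 for High, 1.47 ± 0.17, adjusted p = 0.000191 for Sublow and 2.29 ± 0.17, adjusted p = 2.29e-06 for Negative against Low. Ldhb, the heart-type form, was near the limit of detection, at 67 reads in the 3 Low libraries together against 8 in High, 14 in Sublow and 10 in Negative. Ldhb passed the filter on low values only through its Low libraries, the 1 member of the 35 to do so. Its tests and folds are therefore not given. It is counted among the lower genes of High, Sublow and Negative against Low, and as the 1 gene of the 35 above each other population in Low (1.10% of all genes), from which nothing is read.

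Among the 6 genes of gluconeogenesis, 5 were higher and 1 lower in Negative than in Low (26.8% and 30.3% of all genes). Pck1, the cytosolic phosphoenolpyruvate carboxykinase, had counts of 72.2, 125 and 86.2 in High, 147, 361 and 169 in Low, 1033, 2599 and 628 in Sublow and 2384, 3277 and 5346 in Negative. Negative exceeded Low 16.6-fold (log2 difference 4.05 ± 0.49, adjusted p = 2.97e-05), Sublow was also above Low (2.51 ± 0.49, adjusted p = 0.00343), and the Sublow and Negative libraries overlapped. High against Low (-1.17 ± 0.49, adjusted p = 0.0725) did not pass, although all 3 High libraries were below the Low libraries and the call was made under 8 of 22 alternatives, among them the same total in every library (0.0486), quantile normalisation (0.0337) and DESeq2 (0.0259). Pck2, the mitochondrial form, had counts of 327, 336 and 344 in High, 824, 742 and 708 in Low, 373, 287 and 619.5 in Sublow and 210.1, 70.7 and 131 in Negative. Unlike Pck1, it was highest in Low, with High (-1.17 ± 0.34, adjusted p = 0.0149) and Negative (-2.59 ± 0.34, adjusted p = 5.4e-05) below it.

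G6pc, the catalytic subunit of glucose-6-phosphatase, which releases free glucose, had counts of 34.3, 52.5 and 19.4 in High, 20.7, 68.5 and 13.5 in Low, 322, 728 and 84.4 in Sublow and 787, 1378 and 785 in Negative. High and Low overlapped, and Negative exceeded Low 33.9-fold (log2 difference 5.09 ± 0.72, adjusted p = 8.89e-05). Sublow was above Low too (3.28 ± 0.72, adjusted p = 0.0066), but its 3 libraries spanned 8.63-fold. Pcx, the pyruvate carboxylase, had counts of 262, 211 and 216 in High, 210.2, 248 and 142 in Low, 462, 669 and 221 in Sublow and 822, 1089 and 637 in Negative. It was higher in Negative than in Low (2.08 ± 0.35, adjusted p = 0.000301). Its call of Sublow against Low (1.06 ± 0.35, adjusted p = 0.0453) had overlapping libraries and was lost without any 1 of the High libraries, Low A, Low C, Sublow A, Sublow B or Negative A, where the adjusted p reached 0.184 (without Sublow B), without the filter and with the same total in every library. Fbp1, the liver-type fructose bisphosphatase, had counts of 139, 124 and 119 in High, 184, 247 and 211 in Low, 373, 765 and 318 in Sublow and 831, 1298 and 939 in Negative. Negative exceeded Low 4.71-fold (log2 difference 2.24 ± 0.28, adjusted p = 4.22e-05), and Sublow was above Low (1.08 ± 0.28, adjusted p = 0.0166) except without Low A (adjusted p = 0.0667). Fbp2, the muscle-type form, had counts of 3356, 3199 and 3336 in High, 1409.6, 1543 and 1531 in Low, 2071, 3613 and 2358 in Sublow and 4754, 5598 and 5542 in Negative. All Low libraries were below those of the other populations, by 1.14 ± 0.17, adjusted p = 0.000267 for High and 1.82 ± 0.17, adjusted p = 8.69e-06 for Negative. High was below Negative (-0.68 ± 0.17, adjusted p = 0.00524), a call lost with the same total in every library (adjusted p = 0.277) and after quantile normalisation (0.306).

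Khk, the ketohexokinase that starts fructose breakdown, had counts of 71.3, 82.9 and 78.6 in High, 119, 242 and 136 in Low, 874, 1375 and 453 in Sublow and 1989.5, 2942 and 1782 in Negative. Against Low, Negative was higher 13.8-fold (log2 difference 3.79 ± 0.36, adjusted p = 8.85e-06) and Sublow 5.16-fold (log2 difference 2.37 ± 0.36, adjusted p = 0.00106), with no overlap. High was below Low (-1.01 ± 0.36, adjusted p = 0.0403), a call that was lost without any 1 of the 3 High libraries (adjusted p = 0.0730 to 0.102), Low B (0.162), Low C (0.0577), Sublow A (0.0531) or Negative A (0.0507), and without the filter (0.0535). Absorptive enterocyte marker sums were 14529.5 to 43926 in Low, 31134 to 43861 in High, 67499 to 456873 in Sublow and 566148 to 873919 in Negative. Their part in the differences of Khk, Pck1, G6pc and the glycolytic genes was not tested.

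Glycogen phosphorylases release glucose phosphate from glycogen, and the liver form Pygl showed the widest range of the 35 genes. Pygl had counts of 4600.1, 4361 and 4434 in High, 997, 624 and 889.9 in Low, 16.3, 6.71 and 30.8 in Sublow and 3.17, 7.69 and 2.28 in Negative. Summed over 3 libraries, it had 15081 reads in High and 2767 in Low, but 57 in Sublow and 10 in Negative, and the Negative libraries were close to the floor of 3 reads. From these reads Pygl was 5.40-fold (95% counting interval 5.19 to 5.63) higher in High than in Low, and 1104-fold (95% counting interval 600.4 to 2304) higher in High than in Negative. The fitted differences were 2.44 ± 0.46, adjusted p = 0.00105 for High against Low and -5.67 ± 0.46, adjusted p = 2.06e-05 for Sublow against Low. Only Sublow and Negative overlapped. Pygb, the brain form, had counts of 443, 357 and 359 in High, 1050.1, 903 and 840.0 in Low, 1085, 866 and 1169 in Sublow and 749.8, 532 and 765 in Negative. It was lowest in High, without overlap (-1.27 ± 0.18, adjusted p = 0.000138 against Low and -1.42 ± 0.18, adjusted p = 2.99e-05 against Sublow), so in High the phosphorylase genes moved in opposite directions. For Pygb, the lower level of High against Negative (-0.81, adjusted p = 0.00179) lost its call with the same total in every library (0.219). The fall of Pygb in Negative against Low (-0.46 ± 0.18, adjusted p = 0.0404) was lost without Negative B (0.181), Low A (0.142), Low B (0.0733), Sublow A (0.0507) or High B (0.0502), and without the filter (0.0606). Enteroendocrine and tuft marker sums followed the same order as Pygl over the populations, and their part in the difference was not tested.

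For pyruvate entry, 5 of 7 genes were higher in Negative than in Low, where 26.8% of all genes were higher. Of these 5, Pdha1, Pdhb and Mpc2 lost the call with the same total in every library. In High against Low, 1 of the 7 was higher and 1 lower, no more than the 23.6% and 19.3% of all genes. Pdha1, the E1 alpha subunit of pyruvate dehydrogenase, had counts of 1369, 1314 and 1389 in High, 3475, 3589.9 and 4513 in Low, 3980.0, 4299 and 4867 in Sublow and 4568, 4789 and 5260.4 in Negative. Every High library was below every other library, by -1.50 ± 0.13, adjusted p = 5.72e-06 against Low and -1.84 ± 0.13, adjusted p = 1.75e-07 against Negative. The small difference of Negative from Low (0.34 ± 0.13, adjusted p = 0.0382) turned to the other side with the same total in every library (-0.22) and after quantile normalisation (-0.22), and lost its call without High A, High B, Low A, Low B, Negative B or Negative C (adjusted p = 0.0529 to 0.142), without the filter (0.0737) and in edgeR (0.0687). Pdhb, the E1 beta subunit, had counts of 392, 363 and 454 in High, 414, 479 and 639.5 in Low, 505, 601 and 746 in Sublow and 689, 798 and 749 in Negative. High and Low overlapped (-0.32 ± 0.19, adjusted p = 0.181), and Negative was higher than Low (0.57 ± 0.19, adjusted p = 0.0201), a call lost with the same total in every library (0.985), after quantile normalisation (0.0714) and without Low A (0.0925), Low B (0.0602) or Negative B (0.0652). The ratio of the 2 E1 subunit genes is tested further on.

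Pyruvate dehydrogenase kinases phosphorylate that complex and inhibit it. Pdk3 had counts of 1882, 1719 and 1575 in High, 779, 692 and 613 in Low, 609.6, 563 and 641 in Sublow and 592, 579.8 and 767 in Negative. High was above all other populations, by 1.31 ± 0.14, adjusted p = 2.66e-05 against Low, and the other 3 populations overlapped. Pdk2 had counts of 817, 905 and 812 in High, 526, 659 and 507 in Low, 912, 1494 and 643 in Sublow and 1596, 2308 and 1679 in Negative. It was highest in Negative (1.71 ± 0.25, adjusted p = 0.000123 against Low) and its Sublow libraries overlapped those of High and of Low. Pdk1, the kinase induced by hypoxia, ranged from 603.5 to 870.8. Mpc1 and Mpc2 form the mitochondrial pyruvate carrier. Mpc1 had counts of 262, 264 and 335 in High, 275, 273 and 391 in Low, 375, 563 and 451 in Sublow and 578, 734 and 585 in Negative. Mpc2 had counts of 367, 382 and 378 in High, 304, 389.7 and 532 in Low, 491, 707 and 656 in Sublow and 787, 833 and 640.1 in Negative. High and Low overlapped for both, and Negative was above Low (1.02 ± 0.20, adjusted p = 0.000797 and 0.91 ± 0.20, adjusted p = 0.00217). The call of Mpc2 was lost with the same total in every library (0.145).

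Counting the genes that stood above or below each of the other 3 populations, Negative was above for 16 of the 35 genes (9.33% of all genes) and below for 4, Hk1, Hk2, Pck2 and Pygl (8.20%). The 16 were Gpi1, Pfkp, Tpi1, Gapdh, Pgk1, Pgam1, Eno1, Pkm, Pklr, Ldha, Fbp1, Fbp2, Pck1, Pcx, Khk and Pdk2. This count rested mostly on the differences from Sublow. It was 3 without Negative B, 7 without Sublow C, 10 without Sublow A, 10 with the same total in every library and 4 after quantile normalisation. Under both of these scalings Fbp2 left the count through its difference from High. After quantile normalisation Pkm lost its differences from High and from Sublow. Low was below for 7, Pfkp, Aldoa, Eno1, Pkm, Pklr, Ldha and Fbp2 (2.78% of all genes), and these same 7 genes were found under every alternative with all 4 populations. Aldoc joined these genes without Sublow C. High was above for Hk1, Pfkl, Pygl and Pdk3, 4 genes (15.6% of all genes), also under every such alternative. Aldoa joined these 4 with the same total in every library and after quantile normalisation. High was below for 3, Khk, Pygb and Pdha1 (8.84%), and for 2 of these under several alternatives. Under the alternatives only calls of the main fit were followed, so genes that joined a group there are not in these counts. Fbp1 and Pck1, for example, joined the genes lowest in High when the replicate letter was a block. For Sublow the counts were 0 above (0.0603% of all genes) and 0 below (0.199%).

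Levels of different genes were compared per kilobase of the exons of coding transcripts. The most abundant of the 35 genes on this scale was Pkm in High (3544 normalised counts per kilobase, mean of 3 libraries) and Gapdh in Low (2162), Sublow (6156) and Negative (12370). Ldha ranked next in every population, from 1716 in Low to 8423 in Negative. With lengths over all annotated transcripts the first rank went to Fbp2 in High, Pdha1 in Low and Ldha in Sublow and Negative, so the order of the leading genes depended on the length used.

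Shares within isozyme families, also per kilobase, are given as mean ± SD over 3 libraries. Pygl made up 0.834% ± 0.721 of glycogen phosphorylase in Negative, 1.87% ± 1.05 in Sublow, 50.9% ± 5.53 in Low and 93.1% ± 0.637 in High. Pck1 made up 97.5% ± 2.03 of phosphoenolpyruvate carboxykinase in Negative, 80.2% ± 15.3 in Sublow, 32.9% ± 11.5 in Low and 32.4% ± 6.08 in High. The family thus went from mostly Pck2 in High and Low to almost only Pck1 in Negative. Hk1 held 31.0% ± 0.323 of the Hk1 and Hk2 sum in High, against 11.3% ± 2.49 in Low, 11.4% ± 1.25 in Sublow and 13.9% ± 4.24 in Negative. Pfkp held 53.9% ± 7.21 of phosphofructokinase in Low, 67.0% ± 1.95 in High, 80.4% ± 7.62 in Sublow and 89.9% ± 0.852 in Negative. Fbp2, a form known from muscle, held most of the fructose bisphosphatase in all 4 populations, from 85.1% ± 2.26 in Negative to 96.6% ± 0.244 in High. Among Pdk1, Pdk2 and Pdk3, the largest share was that of Pdk3 in High, with 62.0% ± 2.53, and of Pdk2 in Negative, with 64.1% ± 6.46. Ldha made up 99.1% or more of lactate dehydrogenase in the mean of every population. The order of the populations in this share is not read, because Ldhb passed the filter only through Low. Eno1 made up 96.7% ± 0.704 of enolase in Low, its lowest share. With lengths over all transcripts, Pfkp fell behind Pfkl in Low (37.1% ± 6.83 against 41.4% ± 5.55), and Pygl behind Pygb in Low (38.3% ± 5.16).

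**Figure D4:**
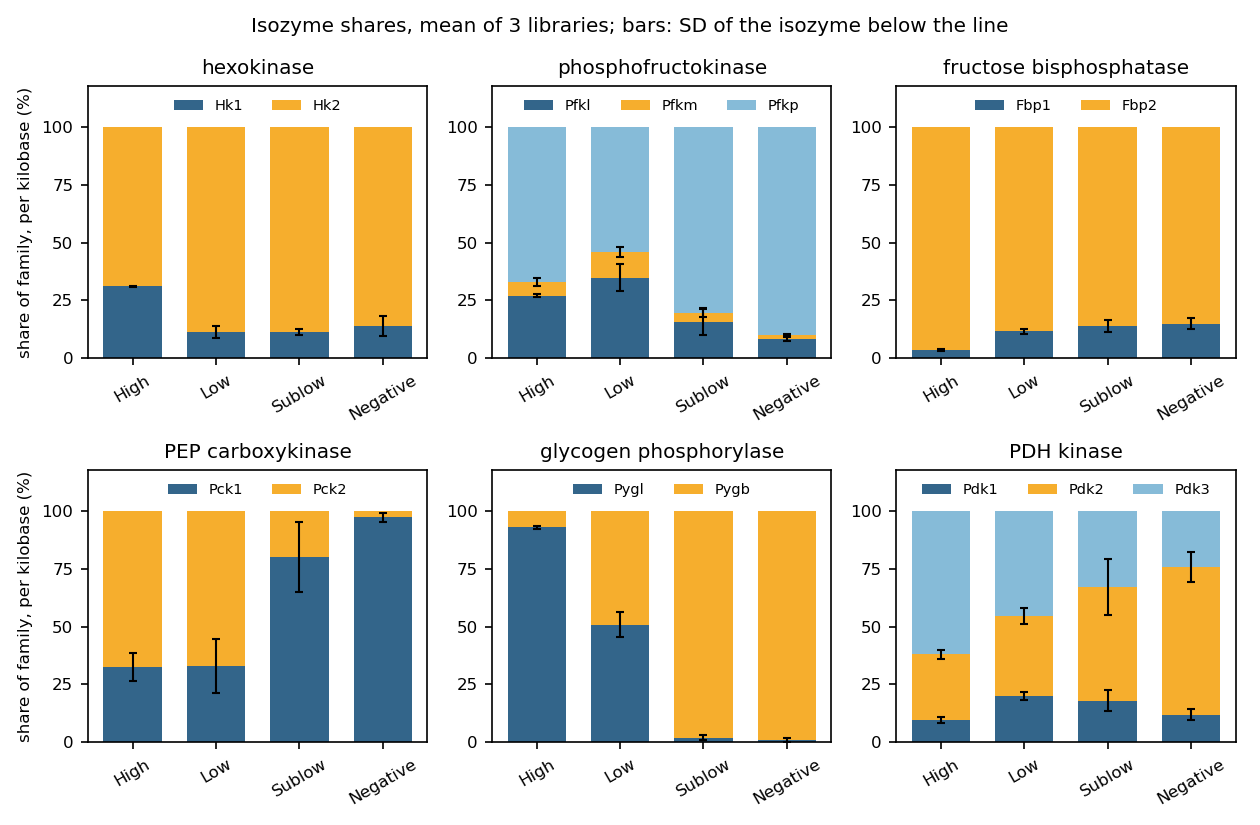
Share of each isozyme in its family, in percent per kilobase of exon, as the mean of 3 libraries in each of the 4 populations; error bars show the SD of the share of the isozyme drawn below them. Pygl fills most of glycogen phosphorylase in High and almost none in Sublow and Negative, and Pck1 fills most of its family in Sublow and Negative.

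The log2 ratio of 2 genes within each library was compared over the 4 populations by an exact two-sided permutation test of the F statistic, over 369600 assignments and with adjustment over 20 ratios, where the smallest p that can be reached is 6.49e-05. Of the 20 ratios, 15 differed. Ldha to Ldhb is counted among the 15, and nothing is read from it, because Ldhb passed the filter only through Low. Pygl to Pygb was -7.10 ± 1.02 (SD, n = 3) in Negative, -6.00 ± 0.81 in Sublow, -0.17 ± 0.32 in Low and 3.53 ± 0.14 in High (exact permutation, adjusted p = 0.0013). Pck1 to Pck2 was 4.78 ± 1.12 in Negative, 1.55 ± 1.58 in Sublow, -1.86 ± 0.74 in Low and -1.86 ± 0.39 in High (adjusted p = 0.00186 by the same exact test). The ratios of Pfkl to Pfkp and of Pdk2 to Pdk3 differed as well (exact permutation, adjusted p = 0.0013 for each). Fbp1 to Fbp2 was -4.68 ± 0.11 in High and between -2.81 and -2.39 in the means of the other 3 populations (exact permutation, adjusted p = 0.0074).

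Of the 2 pairs of subunit genes, 1 differed between populations. Pdha1 to Pdhb was 1.75 ± 0.13 in High against 2.93 ± 0.13 in Low, 2.84 ± 0.14 in Sublow and 2.71 ± 0.12 in Negative (exact permutation, adjusted p = 0.0074). Mpc1 to Mpc2 had means between -0.42 and -0.25, and no difference passed (exact permutation, adjusted p = 0.694). Pairs of opposed reactions both differed. Pfkl to Fbp1 went from 2.99 ± 0.13 in High to -0.64 ± 0.27 in Negative, and Pklr to Pck1 from 4.61 ± 0.44 to 0.81 ± 0.66 (exact permutation, adjusted p = 0.0013 for each). Pkm to Pklr (0.182), Pfkl to Pfkm (0.222), Aldoa to Aldoc (0.0976) and Eno2 to Eno3 (0.807) did not pass the exact permutation test. Eno1 to Eno2, Eno1 to Eno3 and Pdk1 to Pdk2 passed with all libraries but not in every test that left out 1 library, where their adjusted p reached 0.0882, 0.0631 and 0.0779 in the exact permutation test.

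**Figure D5:**
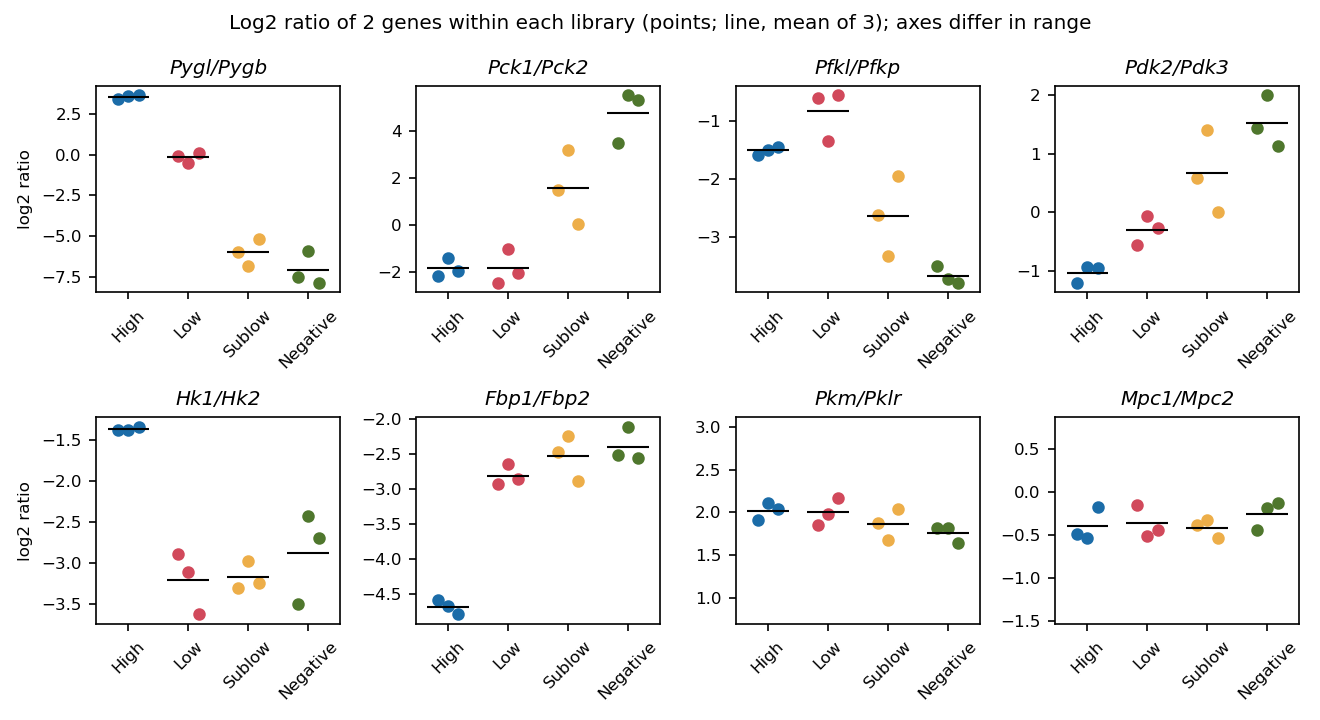
Log2 ratio of 2 genes within each library (points) with a line at the mean of 3, for 8 of the 20 ratios; axes differ in range. The points of Pygl to Pygb span from above 3 in High to below -5 in Sublow and Negative, while those of Mpc1 to Mpc2 overlap in all 4 populations.

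In mean log2 level, Sublow lay between Low and Negative for 31 of the 35 genes (88.6%, against 71.2% of all genes tested). The Sublow libraries differed among themselves. For 16 of the 35 genes (45.7%) B was highest and C lowest, which held for 24.5% of all genes tested. Gapdh at 7672, 14057 and 5880.5 and Khk at 874, 1375 and 453 in A, B and C are examples. C was highest for 12 of the 35 genes, a count from which nothing is read because its share over all genes was not computed. Hk1 and Hk2, which fall towards Negative, had the reverse order, with C highest and B lowest. In Sublow A, B and C, the absorptive enterocyte marker sum was 221559, 456873 and 67499, the crypt base stem cell marker sum 16021, 7303 and 33787, and the goblet cell marker sum 142279, 231200.0 and 252493. The part of these markers in the spread of the 35 genes was not tested.

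A wider list of 91 genes of sugar and lactate transport, glycogen, the pentose phosphate route, the pyruvate dehydrogenase complex and the first steps of the citric acid cycle had 82 genes that passed the filter. Against Low, 37 of the 82 were higher and 16 lower in Negative (26.8% and 30.3% of all genes), 33 and 7 in Sublow (13.3% and 10.7%), and 22 and 18 in High (23.6% and 19.3%), where the split was near that of all genes. High against Negative gave 22 higher and 40 lower (28.8% and 25.8% of all genes), High against Sublow 21 and 34 (26.7% and 25.3%), and Sublow against Negative 12 and 28 (15.1% and 12.7%). The count of Sublow against Negative fell from 40 to 13 without Negative B, to 27 without Sublow A, to 27 without Sublow C and to 20 after quantile normalisation. Of 10 genes of the first steps of the citric acid cycle and the malate shuttle, 9 were higher in Negative than in Low and 10 lower in High than in Negative, with median log2 differences of 2.14 and -2.57 over the list, against -0.05 and 0.03 over all genes.

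Genes of hexose phosphorylation and glycogen outside the 35 also separated the populations. Hkdc1, a hexokinase domain protein, had counts of 201, 305 and 122 in High, 382, 1027 and 377 in Low, 4265, 7139.6 and 2018 in Sublow and 9212, 12876 and 10471 in Negative. It ran opposite to Hk1 and Hk2, at 20.3-fold higher in Negative than in Low (log2 difference 4.34 ± 0.48, adjusted p = 1.77e-05). Ppp1r3b, which targets a phosphatase to glycogen, had counts of 788, 573 and 1029 in High, 160.1, 103 and 116 in Low, 53.1, 42.5 and 39.5 in Sublow and 8.45, 4.61 and 22.8 in Negative. Like Pygl it was highest in High and lowest in Negative (Negative against Low -3.53 ± 0.43, adjusted p = 3.33e-05).

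Transport genes were split between populations. Slc2a2, the transporter GLUT2 of the enterocyte, had counts of 103, 242 and 70.1 in High, 169.9, 532 and 149.8 in Low, 3018, 7331 and 669 in Sublow and 7934, 13959 and 10380.4 in Negative. Negative was above Low by 5.45 ± 0.75, adjusted p = 7.37e-05. Slc5a1, the sodium glucose cotransporter SGLT1, had counts of 2927, 3809 and 3126 in High, 2933, 5632 and 3294 in Low, 21625, 47085 and 9175 in Sublow and 52655, 87931 and 79546 in Negative. Sublow was below Negative (-1.77 ± 0.46, adjusted p = 0.0175), a call lost without Negative B (0.0691) and after quantile normalisation (0.0824). Slc16a1, the lactate and pyruvate carrier MCT1, had counts of 219, 188 and 231 in High, 1294, 1452 and 1438 in Low, 1899, 1806 and 1743 in Sublow and 1732, 1765 and 1859 in Negative. Every High library was far below the others (-2.71 ± 0.11, adjusted p = 1.43e-07 against Low). Slc16a3, the lactate exporter MCT4, was higher in High than in Low (2.73 ± 0.46, adjusted p = 0.00054), with counts of 274, 346 and 336 in High against 57.7, 38.5 and 46.8 in Low. Its Negative libraries, at 344, 437 and 260.2, overlapped those of High. Emb, embigin, a partner protein of lactate carriers, was higher in High than in Low (2.67 ± 0.75, adjusted p = 0.0127), with counts of 321, 395 and 552 in High against 49.0, 65.1 and 81.6 in Low. Tkt, the transketolase of the pentose phosphate route, was lower in High than in Low (-2.10 ± 0.11, adjusted p = 4.26e-07), with counts of 1222, 1037 and 1028 in High against 4733, 4654 and 4693 in Low. The fructose transporter gene Slc2a5 was lower in Sublow than in Negative (-1.71 ± 0.50, adjusted p = 0.0269), a call lost without Negative B, Negative C, Sublow A or Sublow C (0.0565 to 0.102), after quantile normalisation (0.0510) and in edgeR (0.0537). The sugar transporter genes Slc2a10 (3.15 ± 0.38, adjusted p = 0.000892) and Slc2a13 (2.34 ± 0.45, adjusted p = 0.00545) were higher in Sublow than in Negative. Their Negative counts were low, at 19.0, 4.61 and 14.8 for Slc2a10 and 25.3, 7.69 and 28.5 for Slc2a13. Both genes had their highest means in High (427 and 491). Slc2a7, another sugar transporter gene, was higher in Negative than in Low (5.90 ± 0.98, adjusted p = 0.000272), with counts of 756, 1276 and 838 in Negative against 7.63, 41.1 and 9.51 in Low.

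Several counts are uncertain for reasons of mapping. Exons of 10 of the 35 genes (Hk1, Gpi1, Pfkm, Pfkp, Tpi1, Gapdh, Pklr, Pck2, Pdha1 and Mpc1) overlap a gene on the other strand, and the labels do not say whether counting used the strand. Near-identical copies of 4 genes carry counts of their own, from 165.6 to 596.7 for Mpc1-ps, 205 to 1272 for Pgam1-ps2, 149 to 1243 for Eno1b and 0 to 940 for Pgk1-rs7, so reads of Mpc1, Pgam1, Eno1 and Pgk1 may have been split. Pgk1-rs7 was uneven between libraries, at 5.11, 940 and 18.5 in Sublow and 0, 215 and 0 in Negative (A, B, C). The separation of Pgk1 between Sublow and Negative is therefore uncertain.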

How the data were processed

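Libraries were made, per the labels' protocols, from 12000 sorted cells with ribosomal RNA depletion and the SMARTer Total RNA Pico v2 kit, and read from a single end. No label or file header names the aligner, genome build, annotation or size factor program. The authors deposited a table of normalised counts per gene symbol (a signal: reads divided by a size factor per library, as the deposited values show). All values (100% within a tolerance of 0.01) were whole multiples of the value of 1 read, so the authors' read counts were recovered, 11630042 to 17046944 per library. A floor of 3 reads corresponds to 2.38 to 4.61 normalised counts, and intervals from reads cover counting error only.

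The log2 of the deposited value plus 1 was fitted with limma 3.58.1 (R 4.3.3; trend; all 12 libraries, 4 population means), for genes that reached 10 in 3 or more libraries, with Benjamini-Hochberg adjustment over 16577 genes and a threshold of 0.05. Fold changes are on that log2 scale, which understates those of low genes. The replicate letter was no term of the fit. Ratios were tested by exact permutation (numpy 2.4.6), and counting intervals were computed with scipy 1.17.1. Alternatives were pseudocounts of 0.5 and 5, no filter, equal totals, quantile normalisation, library weights, the letter as a block, leaving out each library, leaving out Sublow, and edgeR 4.0.16 and DESeq2 1.42.0 on the recovered reads. For Negative against Low, limma called 9474 genes, edgeR 9460 and DESeq2 9677. Simulated data were used to check the tests. Exon lengths came from GENCODE M21 (GRCm38), which held 30146 of the symbols.

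The 35 genes and all other lists were chosen with earlier results of these data known. Genes that passed the F test with a mean of at least 100 were given by library, the others by range. Of the other pathway genes, at most the 3 largest rises and 3 largest falls per comparison were named, among those called with a mean of at least 100. A further gene that met this rule is not reported here.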

Additional observations from a re-analysis of the deposited data

How the results depend on the processing

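Of 142 calls among the 35 genes in the 6 comparisons, 106 held under every alternative. The replicate block kept 142 of 142 and gave 20, 25, 30, 30, 24 and 26 called genes for High against Low, Sublow against Low, Negative against Low, High against Negative, Sublow against Negative and High against Sublow, where the fit without it gave 17, 21, 29, 29, 23 and 23. Calls gained with the block included Pck1 and Fbp1 in High against Low (adjusted p = 0.0250 and 0.0183) and Hk1 and Hk2 in Sublow against Low (0.0483 and 0.0470). With the block, 17 ratios were called in place of 15. Libraries of the same letter had correlated deviations from their population means (mean r = 0.16, 0.0521 to 0.341, over 0.1 in 13 of 18 pairs, and 12 of 12 libraries correlated best with their own letter), which is a hint from the data that letters share a source, not from the design. Pseudocounts of 0.5 and 5 and DESeq2 kept all 142 calls, library weights lost 1, edgeR 6 and no filter 11.

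Sublow against Negative was the comparison that moved most, from 23 called genes to 11 after quantile normalisation and to between 7 and 25 when 1 library was left out. Scaling to the same total lost 18 calls and quantile normalisation 19, and Pdha1 in Negative against Low turned to -0.22 under both. Leaving out a library lost between 4 calls (Sublow B) and 21 (Negative B). The count of ratios called was between 12 and 16 in these tests. The causes were not tested. Ldhb, Eno2 and the Negative values of Pygl rest on few reads.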
